A study of Mus musculus with 11 samples.

Results

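Axon guidance ligands and receptors were compared between wild-type (WT) and Rarb-null nucleus accumbens, the ventral part of the striatum. The genes were taken by name from the array annotation: ephrins (Efna, Efnb), Eph receptors (Epha, Ephb), semaphorins (Sema), plexins (Plxn), the Unc5 family, the neuropilins Nrp1 and Nrp2, Slits, Robos, netrins and Dcc. This gave 70 of the 19938 genes with a single annotated symbol, each represented by its brightest probe set over all arrays. The name rule also took in Unc50 and Unc5cl, which share the Unc5 letters but are not netrin receptors. Of the 70 genes, 61 had a mean level above the 40th percentile of all genes (log2 6.99) and were tested.

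Each of the 11 arrays held total RNA of 1 male mouse aged 4 to 5 months that had not been used in behavioural tests. There were 6 WT mice and 5 mice null for Rarb, which encodes a retinoic acid receptor (RARβ), a ligand-activated transcription factor. Null mice and WT controls were littermates from heterozygous matings on a mixed C57BL/6J and 129SvEms/j background, so both genotypes carried a segregating background. The tissue was enriched in the shell part of the accumbens and was taken with 0.5 mm punches. The protocol text swaps the 2 group sizes, and the sample titles were followed. The null allele is not described further in the labels. Values are log2 expression after robust multi-array analysis (RMA) on Affymetrix Mouse Gene 1.0 ST arrays. Differences are Rarb-null minus WT with the standard error (SE) of a limma fit over 11963 genes, and adjusted p means the limma Benjamini-Hochberg value over these genes, with a threshold of 0.05.

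Guidance cues steer growing axons by attraction or repulsion and remain expressed in the adult brain, where several act at synapses and on vessels. Most of the secreted class 3 semaphorins bind neuropilins, which signal through plexins, whereas membrane-bound semaphorins mostly bind plexins directly. Slits bind Robo receptors, netrins bind Dcc and Unc5 receptors, and ephrins bind Eph receptor tyrosine kinases, with signals in both directions between the touching cells. In the developing striatum these families pattern the axons that enter and leave it.

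The Rarb signal served as a check of the titles. It was 11.70 to 11.81 in WT arrays and 9.88, 9.86, 10.01, 9.99 and 9.72 in Rarb-null arrays, a difference of -1.86 (SE 0.047, limma adjusted p = 4.44e-11). The signal left in null arrays was above the array medians, and the labels do not say whether its probes lie in the altered part of the gene. Array medians over all probe sets were 7.02 to 7.06 in WT and 7.08 to 7.11 in Rarb-null arrays, without overlap. Over the tested genes the medians were 8.96 to 9.00 and 8.88 to 8.97. Markers of striatal projection neurons were high in every array, with a mean over 8 measured genes of 12.09 to 12.15 in WT and 11.81 to 11.93 in Rarb-null arrays. The mean of 9 cortical neuron markers was 7.31 to 8.14 in WT and 7.99 to 8.66 in Rarb-null arrays, with Neurod6 and Neurod1 below the filter. The mean of 9 oligodendrocyte markers was 9.47 to 9.72 and 9.32 to 9.57. Of these lists limma called 5 of 8 tested projection neuron genes lower, 3 of 7 tested cortical genes higher and 3 of 9 tested oligodendrocyte genes lower. Over all genes tested, 12% were called lower and 7.56% higher. In bulk tissue, fewer cells of a type and less RNA per cell cannot be told apart. Precision is limited by the number of arrays. The p values set each genotype difference against the spread between single mice, and litter was not in the model.

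The data bear on promoters only through the Rarb genotype and the levels of the transcripts. Shown first are 3 promoter stretches from RefSeq (GRCm38.p6), each the 250 bases before the annotated start, 5′ to 3′. Nrp1 (chr8:128358823-128359072, plus strand) and Sema3a (chr5:13396534-13396783, plus strand) encode a receptor and its ligand that both fell, and Slit3 (chr11:35121206-35121455, plus strand) is the Slit with the smallest p. Capitals mark AGGTCA on either strand, the core letters that retinoic acid receptors recognise as repeats.
Nrp1: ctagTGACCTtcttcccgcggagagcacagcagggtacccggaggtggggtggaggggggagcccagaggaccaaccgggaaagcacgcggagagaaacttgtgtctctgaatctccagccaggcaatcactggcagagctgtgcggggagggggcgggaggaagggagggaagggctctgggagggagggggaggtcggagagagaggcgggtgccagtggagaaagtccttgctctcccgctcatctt
Sema3a: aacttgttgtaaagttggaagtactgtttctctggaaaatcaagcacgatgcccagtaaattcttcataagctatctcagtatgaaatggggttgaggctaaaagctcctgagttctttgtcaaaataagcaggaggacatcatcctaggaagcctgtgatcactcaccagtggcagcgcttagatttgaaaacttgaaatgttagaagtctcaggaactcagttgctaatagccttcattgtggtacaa
Slit3: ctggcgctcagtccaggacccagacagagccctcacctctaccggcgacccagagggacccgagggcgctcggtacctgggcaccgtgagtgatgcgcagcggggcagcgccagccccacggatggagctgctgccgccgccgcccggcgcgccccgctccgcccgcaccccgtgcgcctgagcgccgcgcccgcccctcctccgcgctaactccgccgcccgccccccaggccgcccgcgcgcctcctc
The Nrp1 stretch holds 1 match, on the opposite strand, from 246 to 241 bases before the start. The Sema3a and Slit3 stretches hold none. Promoters were listed for 60 of the 70 genes, 76 entries in all because some genes have several starts; Ntn1, Sema6a and Unc5d were the called genes without an entry. AGGTCA occurred in 11 of these 76 stretches (14.5%), against 14.0% of all 32851 stretches in the table, and AGTTCA in 4 (5.26%), against 11.8%. Paired cores were searched as AGGTCANNAGGTCA, AGGTCANNNNNAGGTCA and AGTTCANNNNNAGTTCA on both strands, which contain the single cores. They occurred in 0 of the 76 stretches and in 0.00913%, 0.00913% and 0.0213% of all stretches. A match is a stretch of letters and not a measured site.

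Of the 61 tested genes, 12 rose and 12 fell in Rarb-null accumbens, and 37 did not pass the test. The share called was 39.3%, beside 19.6% of all 11963 genes tested, where 7.56% were called higher and 12% lower. For 14 of the 61 (23.0%) no null array fell inside the WT range or the reverse, beside 11.2% of all genes tested. The median difference was 0.017, with a median size of 0.103, beside -0.017 and 0.070 over all genes. No difference reached 2-fold: the called genes ran from -0.78 (Nrp1) to 0.46 (Plxnc1). When arrays were brought to 1 common median, 18 were higher and 11 lower, beside 14% and 7.85% of all genes. The share of higher calls thus went from 50.0% to 62.1%. All 24 called genes had mean levels above the filter in both genotypes.

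**Figure D1:**
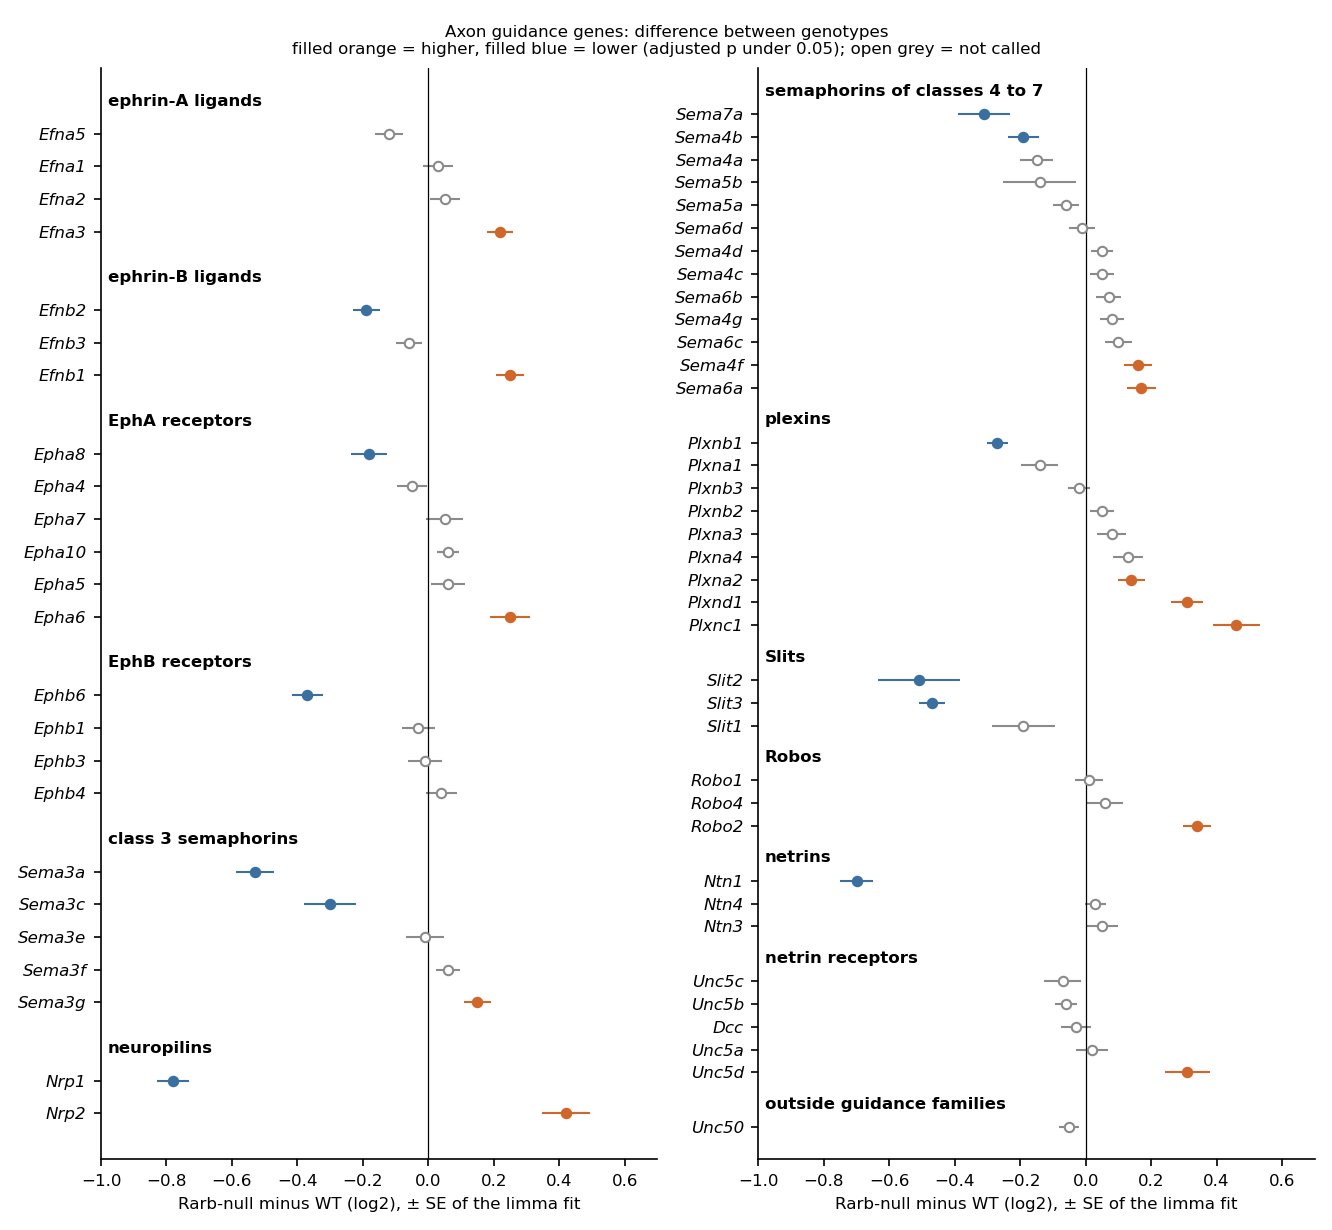
Difference between Rarb-null and WT arrays (log2, horizontal axis) for the 61 tested genes by family; points are limma estimates from 5 against 6 arrays and bars are ± SE. Nrp1, Ntn1, Sema3a, Slit2 and Slit3 lie farthest to the left (-0.78 to -0.47), and Plxnc1 (0.46), Nrp2 (0.42) and Robo2 (0.34) farthest to the right.

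The neuropilins, the ligand-binding co-receptors of class 3 semaphorins, moved in opposite directions. Nrp1, which binds Sema3a and also vascular endothelial growth factor, read 8.50 to 8.67 in WT (median 8.60) and 7.92, 7.70, 7.74, 7.80 and 7.90 in Rarb-null arrays. Every null array lay below every WT array, and the difference was -0.78 (SE 0.048, 1.72-fold lower, limma adjusted p = 1.72e-07). Nrp2, which binds Sema3c, Sema3f and Sema3g, read 8.10 to 8.56 in WT (median 8.36) and 8.68, 8.82, 8.77, 8.72 and 8.94 in null arrays. Here every null array lay above every WT array, with a difference of 0.42 (SE 0.074, limma adjusted p = 0.00176). The opposite directions held under each of the 4 scalings tried and with either marker covariate.

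Among the 5 tested class 3 semaphorins, which are secreted, 2 fell and 1 rose. Sema3a, a repellent that acts through Nrp1 and A-type plexins, read 8.21 to 8.57 in WT (median 8.46) and 7.96, 7.79, 7.86, 7.91 and 8.02 in null arrays. WT replicate 3, at 8.21, was the lowest WT array and still lay above all null arrays (difference -0.53, SE 0.059, 1.44-fold lower, limma adjusted p = 4.35e-05). Sema3c read 7.50 to 7.82 in WT (median 7.64) and 7.41, 7.40, 7.13, 7.24 and 7.59 in null arrays. Null replicate 5 reached into the WT range, and the difference was -0.30 (SE 0.079, limma adjusted p = 0.0185). With a cortical marker covariate it was -0.29 (adjusted p = 0.108), and with that of oligodendrocytes -0.23 (adjusted p = 0.17), past the threshold in neither.

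Sema3g, a ligand of Nrp2 known from vessels, was 7.02 to 7.22 in WT and 7.16 to 7.27 in null arrays (0.15, SE 0.042, limma adjusted p = 0.0247), close to the filter on dim genes. It did not pass when WT replicate 1, 4 or 5 or null replicate 2, 3 or 4 was left out (0.14 to 0.15, adjusted p 0.0517 to 0.0558). It was also lost with repeated quantile normalisation (0.11, adjusted p = 0.0784), without the 3 arrays at the ends of the cortical marker range, which are WT replicates 3 and 4 and null replicate 5 (0.16, adjusted p = 0.0784), and with the cortical (0.14, adjusted p = 0.148) or oligodendrocyte covariate (0.11, adjusted p = 0.203). Sema3g is on the chromosome of Rarb, 112 protein-coding genes away in the RefSeq order, and no other gene of the set is on that chromosome. Sema3e (-0.01) and Sema3f (0.06) did not pass. None of the 8 endothelial and mural cell markers was called, and their mean was 8.71 to 8.80 in WT and 8.63 to 8.77 in null arrays. All 8 had negative differences, from -0.1 to -0.02, beside a median of -0.017 over all genes tested.

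**Figure D2:**
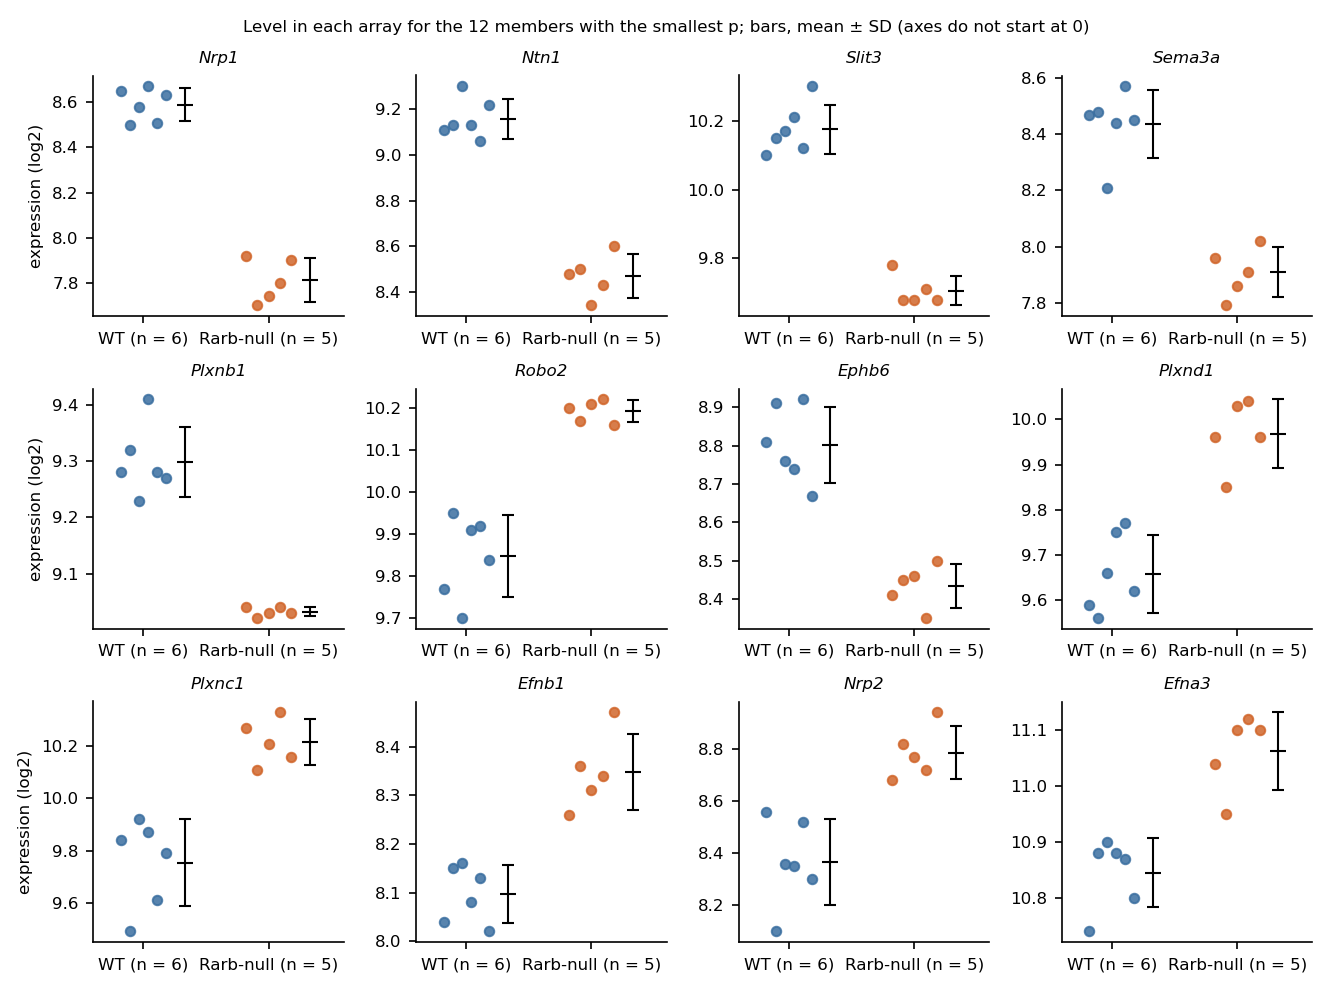
Level of the 12 genes with the smallest p in each of the 6 WT and 5 Rarb-null arrays (log2 expression, vertical axis; scales differ and do not start at 0); points are mice and bars are mean ± SD. In every panel the genotypes occupy separate ranges, lower in Rarb-null arrays for Nrp1, Ntn1, Slit3, Sema3a, Plxnb1 and Ephb6 and higher for the other 6.

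Plexins, the signalling receptors of semaphorins, gave 3 rises and 1 fall among 9 (44.4% called, beside 19.6% of all genes tested). Plxnb1, the receptor of Sema4d, read 9.23 to 9.41 in WT (median 9.28) and 9.04, 9.02, 9.03, 9.04 and 9.03 in null arrays. The null arrays were nearly equal and lay below all WT arrays (-0.27, SE 0.033, limma adjusted p = 0.000108). Plxnd1, the receptor of Sema3e, read 9.56 to 9.77 in WT (median 9.64) and 9.96, 9.85, 10.03, 10.04 and 9.96 in null arrays (0.31, SE 0.048, limma adjusted p = 0.000687). Its ligand gene Sema3e read 8.70 to 9.01 in WT and 8.76 to 9.00 in null arrays, ranges that overlap almost fully.

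Plxnc1, the receptor of Sema7a, read 9.49 to 9.92 in WT (median 9.82) and 10.27, 10.11, 10.21, 10.33 and 10.16 in null arrays. It had the largest rise of the 61 genes, 0.46 (SE 0.072, 1.38-fold, limma adjusted p = 0.000708), without overlap between genotypes. Plxna2, which binds class 6 semaphorins and pairs with neuropilins, was 10.54 to 10.74 in WT and 10.76 to 10.81 in null arrays (0.14, SE 0.040, limma adjusted p = 0.0300). It did not pass without WT replicate 3 or 5 or null replicate 1, 2 or 3 (0.12 to 0.14, adjusted p 0.0525 to 0.0662). It was also lost with the cortical (0.16, adjusted p = 0.0765) or oligodendrocyte covariate (0.15, adjusted p = 0.0903) and without the 3 arrays (0.14, adjusted p = 0.0612). Plxna4 (0.13, adjusted p = 0.0575), Plxna1 (-0.14, adjusted p = 0.0976), Plxna3, Plxnb2 and Plxnb3 did not pass.

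Of the 13 semaphorins of classes 4 to 7, which are bound to the membrane, 2 fell and 2 rose. The share called was 30.8%, beside 19.6% of all genes tested. Sema7a, a glycolipid-anchored ligand that promotes axon growth, read 9.26 to 9.68 in WT (median 9.35) and 9.07, 9.14, 9.05, 9.10 and 9.28 in null arrays. Null replicate 5 overlapped the lowest WT array, and the difference was -0.31 (SE 0.079, limma adjusted p = 0.0153). With the cortical marker level in the model it was -0.49, and with the oligodendrocyte level -0.31 (adjusted p = 0.0836). By genotype means, the gene of this ligand was lower and the gene of its receptor Plxnc1 higher in Rarb-null arrays.

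Sema4b, which encodes a transmembrane semaphorin found at synapses, read 8.64 to 8.91 in WT (median 8.78) and 8.63, 8.53, 8.57, 8.51 and 8.69 in null arrays (-0.19, SE 0.047, limma adjusted p = 0.0125). Its call was lost with the cortical (-0.20, adjusted p = 0.066) or oligodendrocyte covariate (-0.21, adjusted p = 0.0528). Sema6a, a ligand of the plexins Plxna2 and Plxna4, read 9.13 to 9.26 in WT (median 9.24) and 9.32, 9.52, 9.30, 9.33 and 9.40 in null arrays. The genotypes did not overlap (0.17, SE 0.044, limma adjusted p = 0.0185), but the call was lost with the cortical covariate (0.17, adjusted p = 0.094) and without the 3 arrays (0.15, adjusted p = 0.107). Sema4f was 7.96 to 8.14 in WT and 8.13 to 8.28 in null arrays (0.16, SE 0.043, limma adjusted p = 0.0195), and its call was lost with the cortical (0.18, adjusted p = 0.0698) or oligodendrocyte covariate (0.10, adjusted p = 0.206). Sema4a, at -0.15 (adjusted p = 0.0502), lay just outside the threshold. Sema4c, Sema4d, Sema4g, Sema5a, Sema5b, Sema6b, Sema6c and Sema6d did not pass, with differences from -0.14 to 0.10. A dimmer probe set of Sema4d gave 0.17 without overlap between genotypes, where the brighter one gave 0.05.

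The Slits, secreted ligands of Robo receptors, all had negative differences, and 2 of 3 passed (66.7%, beside 19.6% of all genes tested). Slit3 read 10.10 to 10.30 in WT (median 10.16) and 9.78, 9.68, 9.68, 9.71 and 9.68 in null arrays. The ranges were far apart relative to their width (-0.47, SE 0.039, 1.39-fold lower, limma adjusted p = 2.74e-06). Slit2 read 9.51 to 9.95 in WT (median 9.64) and 9.34, 9.23, 8.71, 8.98 and 9.56 in null arrays. Its null arrays spread widely, and null replicate 5 lay within the WT range (-0.51, SE 0.126, limma adjusted p = 0.0145). With the oligodendrocyte covariate the Slit2 difference was -0.42 (adjusted p = 0.126), and with the cortical covariate -0.72.

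Slit1 did not pass over all arrays (-0.19, SE 0.096, limma adjusted p = 0.165). It read 9.04 to 9.34 in WT (median 9.24) and 9.07, 8.91, 8.85, 8.83 and 9.40 in null arrays, so that null replicate 5 was the highest of all 11. Null replicate 5 also had the highest cortical marker mean (8.66). Without it the Slit1 difference was -0.29 (adjusted p = 0.0161), without the 3 arrays at the ends of the cortical marker range -0.35 (adjusted p = 0.0148), and with the cortical covariate -0.45 (adjusted p = 0.00276). With the oligodendrocyte covariate it was -0.15 (adjusted p = 0.493) and did not pass. Slit1 was not the only gene to gain a call. With the cortical covariate Sema4a (-0.25, adjusted p = 0.0107) and Sema5a (-0.15, adjusted p = 0.036) passed too. Plxna4 passed in several other alternatives, such as with arrays centred (0.17, adjusted p = 0.0208). In WT replicates 1 to 6 the cortical marker mean was 7.60, 8.14, 7.31, 7.38, 7.97 and 7.78, and Slit1 read 9.06, 9.34, 9.16, 9.04, 9.32 and 9.32 in the same arrays.

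Among the Robo receptors 1 of 3 tested genes rose (33.3% called, beside 19.6% of all genes tested). Robo2 read 9.70 to 9.95 in WT (median 9.88) and 10.20, 10.17, 10.21, 10.22 and 10.16 in null arrays, without overlap (0.34, SE 0.044, limma adjusted p = 0.000138). Robo1 averaged 11.08 ± 0.10 (SD, n = 6) in WT and 11.08 ± 0.01 (SD, n = 5) in null arrays, a difference of 0.01 (SE 0.044). Robo4, an endothelial receptor, gave 0.06 and did not pass. By genotype means, Slit2 and Slit3 were lower and Robo2 higher in Rarb-null arrays. In null replicate 5, however, Slit2 (9.56) lay within its WT range.

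Netrin 1 had the largest fall among the ligands. Ntn1, which attracts axons through Dcc and repels them through Unc5 receptors, read 9.06 to 9.30 in WT (median 9.13) and 8.48, 8.50, 8.34, 8.43 and 8.60 in null arrays. The genotypes were separated by a wide gap (-0.70, SE 0.051, 1.62-fold lower, limma adjusted p = 8.9e-07). The other tested netrins, Ntn3 (0.05) and Ntn4 (0.03), did not pass. Of 5 netrin receptors 1 rose: Unc5d read 8.57 to 8.91 in WT (median 8.70) and 8.91, 9.15, 9.01, 9.14 and 8.89 in null arrays, with overlap at the edge (0.31, SE 0.069, limma adjusted p = 0.00835). A second Unc5d probe set gave 0.32, without overlap. Dcc read 10.00 to 10.22 in WT and 9.98 to 10.14 in null arrays (-0.03, SE 0.045), and Unc5a (0.02), Unc5b (-0.06) and Unc5c (-0.07) did not pass either.

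In the ephrin and Eph families, 3 of 7 tested ligands and 3 of 10 tested receptors passed, beside 19.6% of all genes tested. Efna3, a glycolipid-anchored ligand of EphA receptors, read 10.74 to 10.90 in WT (median 10.87) and 11.04, 10.95, 11.10, 11.12 and 11.10 in null arrays (0.22, SE 0.040, limma adjusted p = 0.00246). Efnb1, a transmembrane ligand of EphB receptors, read 8.02 to 8.16 in WT (median 8.11) and 8.26, 8.36, 8.31, 8.34 and 8.47 in null arrays (0.25, SE 0.042, limma adjusted p = 0.00114). Neither gene overlapped between genotypes. Efnb2, another transmembrane ephrin, moved the other way, from 9.94 to 10.12 in WT (median 10.03) to 9.86, 9.75, 9.85, 9.94 and 9.78 in null arrays. The difference was -0.19 (SE 0.041, limma adjusted p = 0.00699), which did not pass with the cortical covariate (-0.14, adjusted p = 0.111) and without the 3 arrays (-0.17, adjusted p = 0.0684). Efna5, a ligand known for topographic mapping, gave -0.12 (adjusted p = 0.0634).

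Ephb6, an Eph receptor without kinase activity, read 8.67 to 8.92 in WT (median 8.79) and 8.41, 8.45, 8.46, 8.35 and 8.50 in null arrays, without overlap (-0.37, SE 0.047, limma adjusted p = 0.000147). Epha6 read 9.99 to 10.27 in WT (median 10.17) and 10.52, 10.38, 10.44, 10.40 and 10.26 in null arrays (0.25, SE 0.061, limma adjusted p = 0.0122), with null replicate 5 inside the WT range. With the oligodendrocyte covariate it gave 0.27 (adjusted p = 0.0556). Epha8 was 7.82 to 8.05 in WT and 7.57 to 7.85 in null arrays (-0.18, SE 0.055, limma adjusted p = 0.0364) and had the largest adjusted p of the called genes. It did not pass without WT replicate 1, 2, 3 or 4 or null replicate 2, 4 or 5 (-0.19 to -0.14, adjusted p 0.0526 to 0.081), with arrays centred (-0.14, adjusted p = 0.1) and with the cortical covariate (-0.08, adjusted p = 0.445). It was also lost without the 3 arrays (-0.09, adjusted p = 0.223) and with no filter on dim genes (-0.18, adjusted p = 0.0501).

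The remaining Eph receptors did not pass. Epha4, which binds both classes of ephrins, averaged 10.97 ± 0.07 (SD, n = 6) in WT and 10.93 ± 0.08 (SD, n = 5) in null arrays. Epha5, Epha7, Epha10, Ephb1, Ephb3 and Ephb4 gave differences from -0.03 to 0.06, and Efna1, Efna2 and Efnb3 from -0.06 to 0.05. Unc50, taken in by its name alone, gave -0.05. Over the 37 tested genes that did not pass, differences ran from -0.19 to 0.13, and 30 were smaller than 0.1 in size. The 9 genes below the filter were Efna4, Epha1, Epha2, Epha3, Ntn5, Robo3, Sema3b, Sema3d and Unc5cl, with mean levels of 5.68 to 6.90. In a fit with no filter, Epha3 was the only one of these 9 to pass (0.21, SE 0.058, limma adjusted p = 0.0329).

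By role, 5 of 31 tested ligand genes rose and 8 fell (41.9% called), with a median difference of -0.006. Of 29 tested receptor genes 7 rose and 4 fell (37.9% called), with a median of 0.035. Over all genes tested 19.6% were called, 7.56% higher and 12% lower. The difference between roles was not tested. The 5 largest falls comprised 4 genes of secreted ligands (Ntn1, Sema3a, Slit2 and Slit3) and Nrp1, and the 5 largest rises were those of the receptors Plxnc1, Nrp2, Robo2, Plxnd1 and Unc5d. This cut at 5 was made on the same differences. Next after it came the receptor gene Ephb6 among the falls (-0.37). Next among the rises were the ligand gene Efnb1 and the receptor gene Epha6 (0.25 each).

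**Figure D3:**
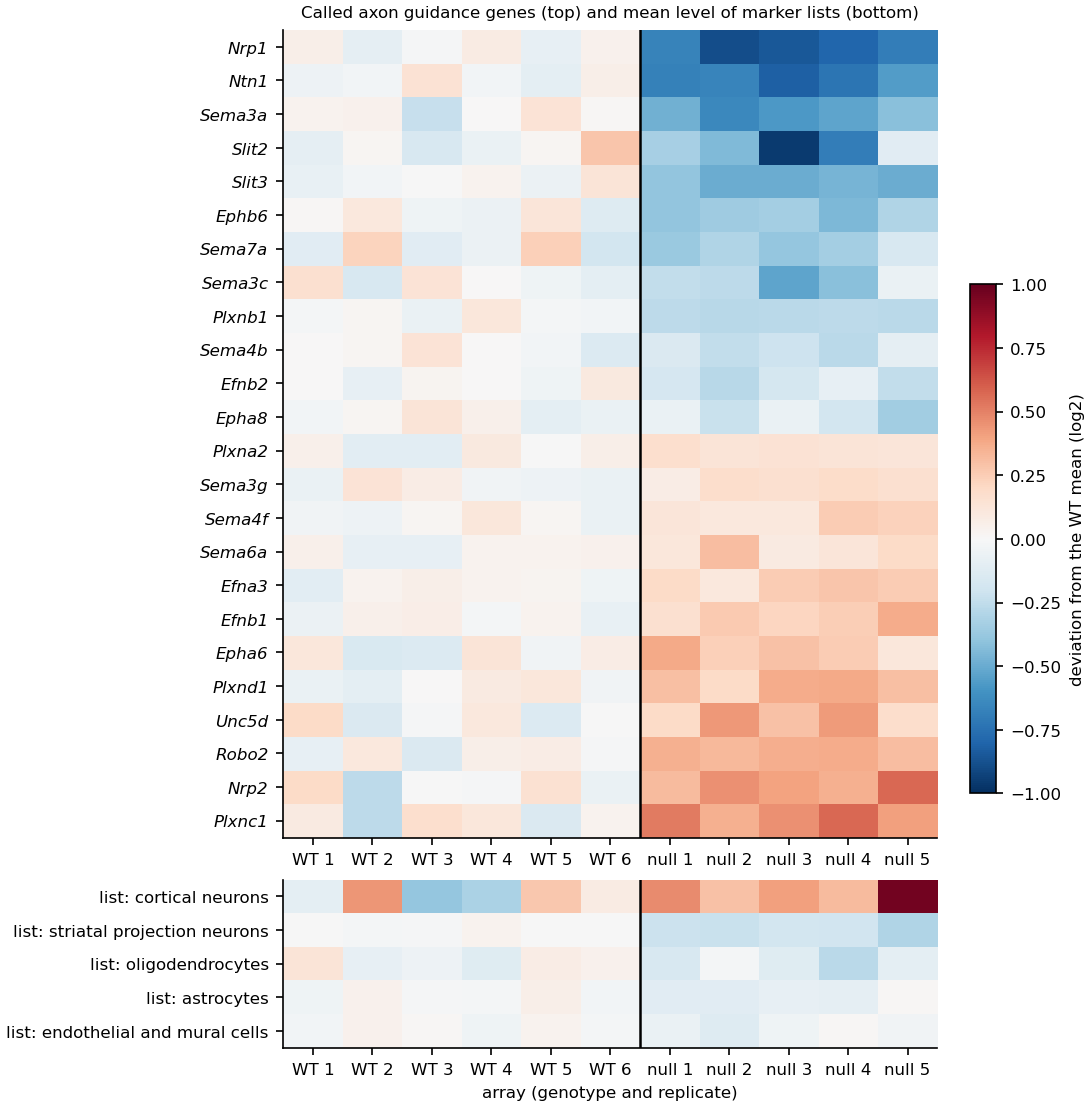
Deviation of each array from the WT mean (log2, colour) for the 24 called genes (rows, ordered by difference) in 6 WT and 5 Rarb-null arrays, with the mean level of 5 marker lists beneath. The upper 12 genes are lower and the next 12 higher in Rarb-null arrays, and the cortical list varies among WT arrays (7.31 to 8.14) as well as between genotypes.

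Cortical and oligodendrocyte marker levels differed between genotypes as given above, so the fit was repeated with each as a covariate. No fit used the projection neuron list, whose array means did not overlap between genotypes (12.09 to 12.15 in WT and 11.81 to 11.93 in Rarb-null arrays). Dependence of the calls on projection neuron content was therefore not tested. With the cortical level, 8 of the 61 genes rose and 11 fell, 16 of them among the 24 called before, while 9.55% of all genes were called. With the oligodendrocyte level 8 rose and 8 fell, all 16 among the 24, with 9.52% of all genes called. Without WT replicates 3 and 4 and null replicate 5, which lie at the ends of the cortical marker range, 9 rose and 12 fell, 19 of them among the 24, with 11.3% of all genes called. Called in all of these fits were Nrp1, Ntn1, Sema3a, Slit3, Plxnb1 and Ephb6 among the falls and Robo2, Plxnd1, Plxnc1, Efnb1, Nrp2, Efna3 and Unc5d among the rises. None of the 24 genes changed sign in any of the 24 alternatives in which it was tested.

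**Figure D4:**
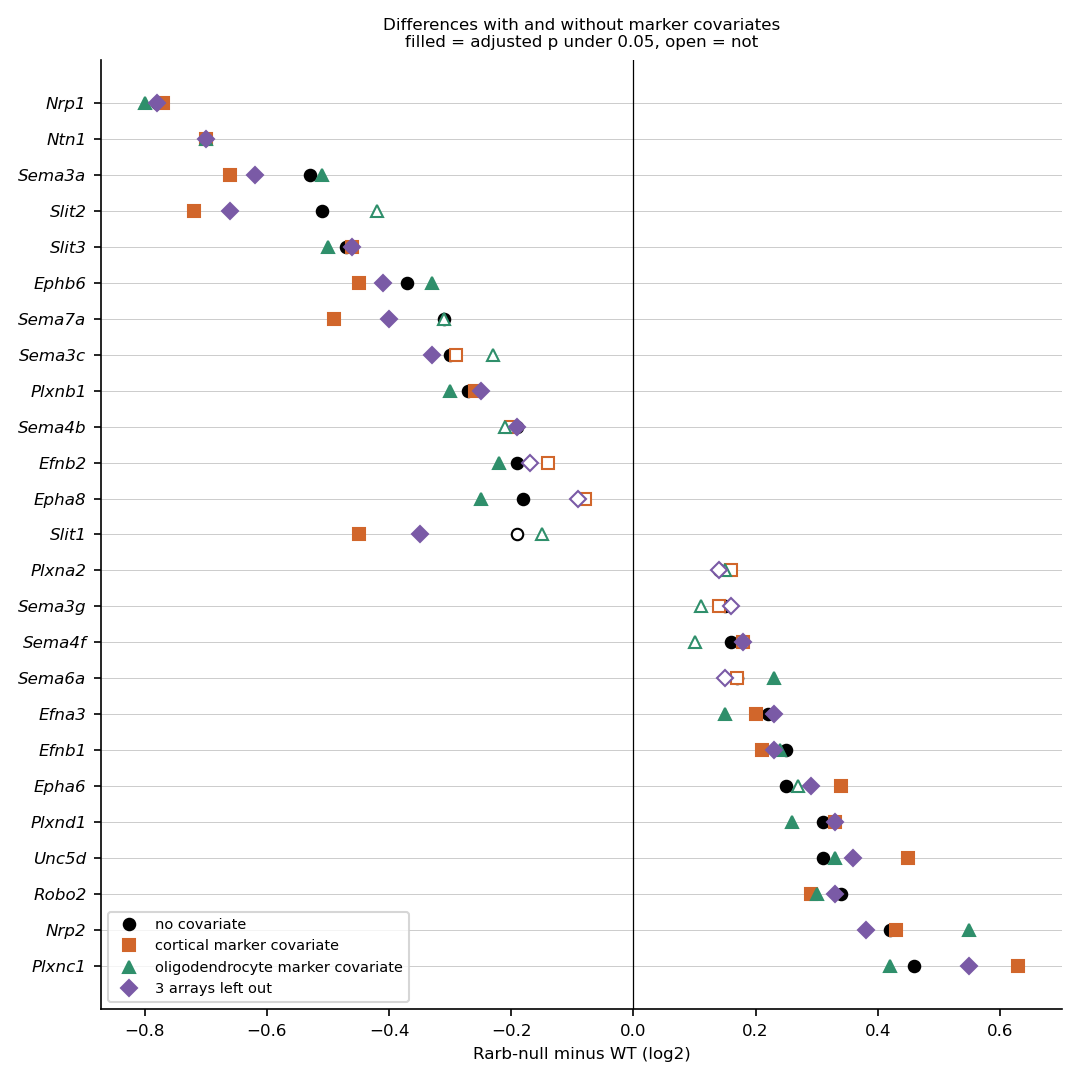
Rarb-null minus WT difference (log2, horizontal axis) of the 24 called genes and Slit1 in 4 fits: no covariate, cortical marker covariate, oligodendrocyte marker covariate, and 3 arrays left out; filled symbols passed the adjusted p threshold of 0.05. Nrp1 stays between -0.80 and -0.77 and Ntn1 at -0.70, whereas Slit1 moves from -0.19 to -0.45 with the cortical covariate.

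Other genes of axon guidance were read from a list of 62 co-receptors, further cues, adhesion partners and cytoplasmic effectors, of which 57 were tested. Of these 8 rose and 9 fell (29.8% called, beside 19.6% of all genes tested), and the median difference was -0.024. With arrays centred 14 rose and 4 fell, beside 14% and 7.85% of all genes. With the cortical covariate 6 rose and 4 fell (9.55% of all genes called), and with the oligodendrocyte covariate 5 and 3 (9.52%). The falls numbered 5 without WT replicate 4 or null replicate 3. Over all genes, calls also went from 2341 to 1727 without WT replicate 4 and to 1547 without null replicate 3.

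Flrt2, a membrane ligand of Unc5 receptors including Unc5d, was 10.08 to 10.12 in WT and 9.52 to 9.78 in null arrays (-0.47, SE 0.045, limma adjusted p = 1.02e-05). Among the rises were Ntng1, the membrane-anchored netrin G1 (0.42, SE 0.065), Chl1, an adhesion molecule of the L1 family (0.36, SE 0.058), and Nell2, a secreted ligand of Robo3 (0.21, SE 0.029). The limma adjusted p of these 3 genes ran from 0.00023 to 0.001, and none of them overlapped between genotypes. Vav2, an exchange factor used by Eph receptors and also counted among the 8 rises, read 6.77 to 6.94 in WT and 7.14 to 7.29 in null arrays. Its WT level was below the filter, so that it was tested only because of its null arrays, and its difference is given as a description.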

How the data were processed

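RNA (100 ng per mouse) was hybridised to Affymetrix Mouse Gene 1.0 ST arrays, per the labels. The deposited values are log2 expression after RMA by the authors, per the labels' descriptions and the submitters' processing notes; base 2 was inferred from their range, and software version, annotation and scan batches are not stated in the sources. RMA evens out overall brightness and compresses the folds of dim probe sets.

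Of 35556 probe sets, 21789 had 1 annotated symbol, 1621 several and 12146 none here. Symbols were updated through Entrez identifiers (21698 matched; RefSeq, GRCm38.p6), and the brightest probe set stood for a gene. Genes above the 40th percentile (11963 of 19938) were fitted with limma 3.58.1 in R 4.3.3 (lmFit, eBayes, no covariate). Tested on simulated data for this comparison over 11963 genes, the fit recovered 74.6% of changes of 0.25, 97.0% of 0.5 and 100% of 1, with 11 false calls among 11763 unchanged genes. The simulation drew independent noise for each gene and changed only a small share of the genes. Shifts of whole arrays and correlation between genes were not simulated, so false calls from these were not measured.

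The genes, lists, tests and alternatives were chosen with earlier results of these data known. The rule for named genes gave array values for the 20 called genes with the smallest p, ranges for the rest, and the 6 pathway genes with the smallest p, of which 1, a fall with the smallest p of that list, is not reported here. Arrays left out for cortical marker level were taken from an earlier analysis. The marker lists also held oligodendrocyte precursors and microglia (0 genes called in each), astrocytes (1 higher, 2 lower of 7), interneurons (1 and 1 of 4 tested) and septal and pallidal neighbours (0 of 2 tested). Plots used matplotlib 3.10.9 (Python 3.11.15).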

Additional observations from a re-analysis of the deposited data

Results flagged for a closer look

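In 13 cases 1 array lay far from the others of its genotype, by Dixon's test at 95%, among 136 groups tested for 68 genes; chance gives about 1 in 20 groups. WT replicate 6 stood apart for Efna5 (9.15, other WT arrays 8.99 to 9.04), Ephb3 (7.11, others 7.34 to 7.43) and Sema4c (7.60, others 7.73 to 7.78). Single WT arrays stood apart for Efna2 (replicate 4 at 8.55, others 8.60 to 8.63), Ntn4 (replicate 1 at 7.01, others 7.09 to 7.13), Plxnb3 (replicate 2 at 7.62, others 7.73 to 7.78) and Sema3a (replicate 3 at 8.21, others 8.44 to 8.57).

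Among Rarb-null arrays, replicate 5 stood apart for Efna2 (8.86, others 8.58 to 8.64), Unc5a (10.47, others 10.28 to 10.30) and Chl1 (9.78, others 9.52 to 9.56). Replicate 2 stood apart for Robo4 (7.35, others 7.27 to 7.29) and Sema4d (8.98, others 8.85 to 8.86), and replicate 1 for Sema3g (7.16, others 7.24 to 7.27). Of these genes Sema3a, Sema3g and Chl1 were called; Sema3a and Chl1 were also called without the array named, and so was Sema3g.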

How the results depend on the processing

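Of 24 called genes, 13 passed under every alternative other than the stricter threshold in which they were tested, and 21 passed whichever array was left out. With a threshold of 0.01, 7 rose and 7 fell, the pathway list gave 5 rises and 3 falls, and 970 of all genes were called. Leaving out 1 array gave 10 to 13 rises and 11 to 13 falls, 7 to 9 rises and 5 to 11 falls in the pathway list, and 1547 (without Rarb-null replicate 3) to 2576 calls over all genes. With arrays centred the pathway list gave 14 rises and 4 falls. With the oligodendrocyte covariate it gave 5 rises and 3 falls, with 1139 genes called in all, and with the cortical covariate 4 falls and 1143 in all. Without the 3 arrays at the ends of the cortical marker range 1347 were called. Of 1443 combinations of a tested gene and an alternative, 52 lost a call, 29 gained one and 0 changed sign with a call in either fit; changes of sign among genes called in neither were not counted.

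The main fit did not treat same-numbered arrays as pairs. Whether the numbers in the titles mark pairs or batches cannot be told from these values. Deviations of same-numbered arrays from their genotype means correlated at 0.06 to 0.43, over 0.1 in 4 of 5 pairs. For 2 of 5 null arrays the best correlation was with their own number. With the replicate number as a block 13 rose and 13 fell, and calls over all genes went from 2341 to 2872; it cost none of the 24 calls. Signal over background was not measured, so dim genes such as Sema3g have the least certain folds.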
